A study of Rattus norvegicus with 8 samples.

Results

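The genes described here, in rat liver, are the activator arm of the circadian clock (Bmal1, Npas2 and Clock) and the receptor gene Rora. With them stand the repressor genes Cry1, Cry2, Nfil3, Bhlhe40 and Bhlhe41. Together they are 9 of the 14217 genes measured, and all 9 had probe sets annotated to them alone. The members were chosen from the clock pathway with their values on these arrays in view, that is, with the levels in single rats and the diet differences known. Differences between diets and likeness between members are therefore given as descriptions, and p-values of members are not read as tests.

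Liver RNA of 8 male Sprague-Dawley rats (Jcl: SD) aged 7 weeks was measured on Affymetrix expression arrays, 1 array per rat. By the design text, control rats were kept for 2 weeks on a commercial rodent diet (CRF-1) to which cholesterol (10 g per kg) and cholic acid (5 g per kg) had been added, and L. brevis rats ate the same diet with 10 g per kg of freeze-dried viable Lactobacillus brevis 119-2, a bacterium from turnip. Each diet was fed to 11 rats, and arrays of 4 rats per diet, called biological replicates, were analysed. All rats therefore carried the cholesterol and cholic acid load, although the labels of the control samples speak of CRF-1 only. The sources used here give neither the hour at which the livers were taken nor any batch.

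The clock is a feedback loop of transcription factors. BMAL1 pairs with CLOCK or with its paralogue NPAS2 and switches on genes with E-box sequences, among them the Per and Cry genes, whose proteins then inhibit the pair. A second loop sets Bmal1 itself: ROR receptors such as RORA activate it, and the REV-ERB receptors (Nr1d1, Nr1d2) repress it through the same DNA elements. NFIL3 represses genes with D-box elements that the PAR factors DBP, TEF and HLF activate, and BHLHE40 and BHLHE41 (DEC1 and DEC2) bind E-boxes as repressors. In liver the transcripts of most of these genes rise and fall over the day, Bmal1 and Npas2 opposite in phase to Nr1d1 and Dbp.

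The promoters of Bmal1 and Bhlhe40 are shown because they carry the motifs through which the arms of the loop are linked. The stretches are the 250 bases before the annotated start, from RefSeq on the GRCr8 build (chr1:176766078-176766327 and chr4:143174200-143174449, both plus strand). The capitals mark the ROR motif AGGTCA in Bmal1 and the E-box CACGTG in Bhlhe40.
Bmal1: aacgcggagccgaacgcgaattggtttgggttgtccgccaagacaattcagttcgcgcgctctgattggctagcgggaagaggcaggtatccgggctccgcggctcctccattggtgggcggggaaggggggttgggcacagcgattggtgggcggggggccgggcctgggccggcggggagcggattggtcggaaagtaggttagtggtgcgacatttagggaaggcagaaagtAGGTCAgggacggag
Bhlhe40: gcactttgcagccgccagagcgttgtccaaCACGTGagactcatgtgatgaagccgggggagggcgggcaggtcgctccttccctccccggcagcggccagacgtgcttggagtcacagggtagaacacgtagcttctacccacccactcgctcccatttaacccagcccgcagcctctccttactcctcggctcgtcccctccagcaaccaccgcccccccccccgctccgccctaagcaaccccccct

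The ROR motif AGGTCA, the E-box CACGTG and the D-box TTATGTAA were searched on both strands, and these letters do not overlap one another. Of the 9 genes, 8 were matched in the promoter table, and Cry1 was not. The Bmal1 motif began 15 bases before the start, the E-box of Bhlhe40 began 220 bases before it, and Bhlhe41 had an E-box that began 48 bases before its start. The windows of Npas2, Clock, Cry2, Rora and Nfil3 held none of the 3 motifs. Among 33469 promoter windows of this length, 14.1% held the ROR motif, 5.59% the E-box and 0.828% the D-box. A match is a description of the sequence and not a measured binding site, and no match says only that these letters are not in the window.

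Values are log2 signals as deposited, and a difference is L. brevis minus control on the log2 scale. Of the 14 probe sets of the 9 genes, 7 varied between arrays by more than 0.01 log2, and the other 7 held 1 value on all 8 arrays. Of all 31042 probe sets tested, 79.6% were of this flat kind. A flat probe set carries no information on differences between rats. Cry2 was flat at both of its probe sets (7.57 and 6.93) and Bhlhe41 at its only one (6.21), so nothing could be measured for these 2 repressor genes. The other 7 genes had 1 varying probe set each, which was also the brightest of the gene.

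Hepatocyte genes were bright on every array, with a mean over 7 varying markers of 12.44 to 12.69 in control and 12.50 to 12.74 in L. brevis livers. Albumin (Alb) was flat at 14.55 at its brightest probe set. Endothelial markers (8 varying of 10 measured) had a mean of 8.72 to 9.21 in control and 8.47 to 8.58 in L. brevis livers, so the diets did not overlap. Macrophage markers (7 of 8) spanned 8.69 to 9.16 and 8.88 to 9.27. The stellate cell list (5 of 8) overlapped between diets, from 8.32 to 8.98 in control and from 8.08 upward in L. brevis rats, and the cholangiocyte list (2 of 5) 6.71 to 7.07 and 6.85 to 6.96. Of the erythroid markers 3 of 4 varied (8.48 to 9.29, and 8.31 to 10.04), of the pancreas markers 1 of 5 (8.30 to 9.22, and 7.86 to 8.68) and of the adipose markers 3 of 4 (6.58 to 6.82, and 6.72 to 7.90). The 6 lymphocyte markers measured were all flat. Skeletal muscle markers (7 of 9) had a mean of 9.44 in L. brevis 2, against 6.66 to 6.84 in the other 7 rats, and Acta1 stood at 12.45 there, against 5.08 to 5.54 elsewhere. Without L. brevis 2 the diet difference of Rora was +0.79, of Nfil3 -1.13, of Bhlhe40 +0.91, of Npas2 -1.41, of Bmal1 -0.48, of Cry1 -0.59 and of Clock -0.15. The GAPDH control signal at the 5' end minus that at the 3' end, a sign of RNA integrity or labelling, ran from -2.93 to -1.83 in control and from -2.20 to -0.68 in L. brevis rats. The mean of 24 Bacillus transcript control probe sets, for RNA usually added before labelling, was 8.62 to 9.08 in control and 7.48 to 8.33 in L. brevis rats, without overlap.

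The activator genes differed more between rats than between diets. Bmal1 (probe set 1370510_a_at) stood at 7.39, 7.71, 7.44 and 6.83 in control rats 1 to 4, and at 7.61, 7.73, 6.87 and 6.12 in L. brevis rats 1 to 4. The low livers were control 4 and L. brevis 3 and 4, and the diets overlapped fully. The value of L. brevis 4 lay below the array medians (6.61 to 6.63) and was not shown to be above background. The means were 7.34 ± 0.37 and 7.08 ± 0.75 (SD, n = 4 each), a difference of -0.26 (SE 0.41), and without L. brevis 4 it was +0.06. Diet accounted for 6.07% of the variance of Bmal1 over the 8 rats.

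Npas2 (1383439_at), which encodes the partner of BMAL1 that can stand in for CLOCK, had the widest range of the 9 genes. Control rats 1 to 4 had 9.55, 8.78, 8.53 and 7.25, and L. brevis rats 1 to 4 had 8.61, 8.73, 7.10 and 5.64. Control 1 and L. brevis 4 were thus 3.91 apart on the log2 scale, but the value of L. brevis 4 lay below the array medians (6.61 to 6.63) and was not shown to be above background. Control 4 and L. brevis 3 lay close to each other, 1 on each diet. The difference between the means of 8.53 ± 0.95 and 7.52 ± 1.46 was -1.01 (SE 0.86), and -0.38 without L. brevis 4.

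Clock, the constitutive partner of BMAL1, varied little. Its varying probe set (1390199_at) had 8.81, 8.82, 9.06 and 8.85 in control rats and 8.92, 8.86, 8.81 and 8.46 in L. brevis rats. L. brevis 4 stood apart below the other 7 rats. The difference was -0.12 (SE 0.12), or -0.02 without L. brevis 4, and the other 3 Clock probe sets were flat at 7.99, 6.47 and 5.97.

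**Figure D1:**
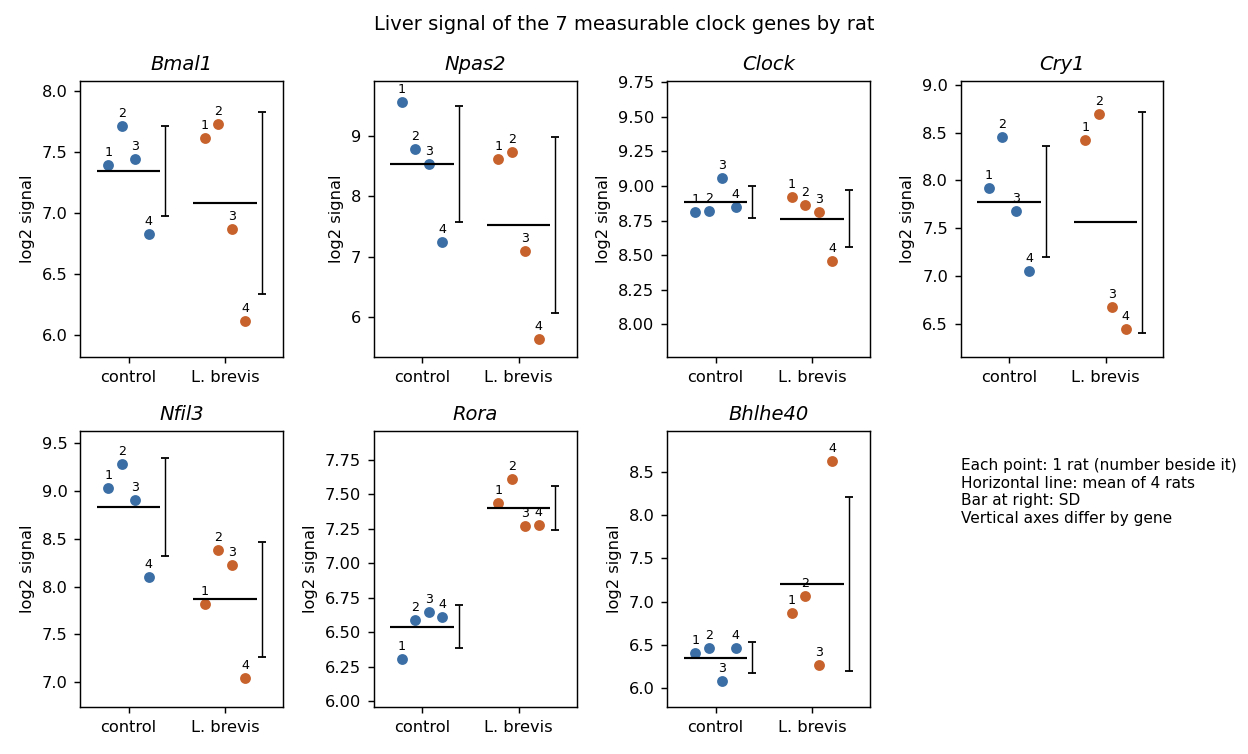
Log2 signal of the 7 clock genes that varied, 1 point per rat with its number, with the mean (line) and SD (bar) of 4 rats per diet; the vertical axes differ by gene. Rora separates the diets, at 6.31 to 6.65 against 7.27 to 7.61, whereas Bmal1, Npas2 and Cry1 overlap, with rat 4 the lowest on either diet.

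Cry1, which encodes an inhibitor of the activator pair, followed the same rats as Bmal1. Control rats 1 to 4 had 7.92, 8.45, 7.68 and 7.05 (probe set 1392640_at), and L. brevis rats 1 to 4 had 8.42, 8.69, 6.68 and 6.45. L. brevis 1 and 2 were at the top of the range and L. brevis 3 and 4 at the bottom, so that the control rats lay mostly between them. The value of L. brevis 4 was below the array medians (6.61 to 6.63) and not shown to be above background. The diet difference of -0.21 (SE 0.64) was small beside this spread, with 1.78% of the variance between diets. Leaving out single rats turned it to +0.01 (control 2), +0.08 (L. brevis 3) or +0.16 (L. brevis 4).

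Rora, the receptor gene that activates Bmal1, was the member that separated the diets. Its varying probe set (1379397_at) stood at 6.31, 6.59, 6.65 and 6.61 in control rats 1 to 4 and at 7.44, 7.61, 7.27 and 7.28 in L. brevis rats 1 to 4. Every L. brevis liver lay above every control liver. The means were 6.54 ± 0.15 and 7.40 ± 0.16, a difference of +0.86 (SE 0.11), and leaving out single rats gave +0.79 to +0.91. The control values lay around the array medians (6.61 to 6.63), and the files used here hold no detection calls. Whether Rora was above background in control livers is therefore not known, and the difference is one of signal, from which no fold of the transcript is given. Diet accounted for 90.8% of its variance, and 10 of 3806 varying genes had a larger share. Its second probe set (1380478_at) was flat at 6.20 and could not bear on this. The value rests on a single probe set whose separation was known when the gene was chosen. In bulk liver a change in the cells that hold a transcript and a change in RNA per cell cannot be told apart.

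The Bacillus control signal, the endothelial markers and, in part, the GAPDH end difference separated the same rats as Rora. With the Bacillus control mean as a covariate the Rora difference was +0.79 (SE 0.22), and with the GAPDH end difference it was +0.88 (SE 0.17). Across the 8 rats Rora had a Pearson r of -0.83 with the Bacillus control mean, and of -0.17 once the diet means were removed. The Bacillus control mean did not overlap between diets, so its part and that of diet cannot be told apart in these 8 rats. The parts of the GAPDH end difference and of the endothelial markers in the result were not tested.

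**Figure D2:**
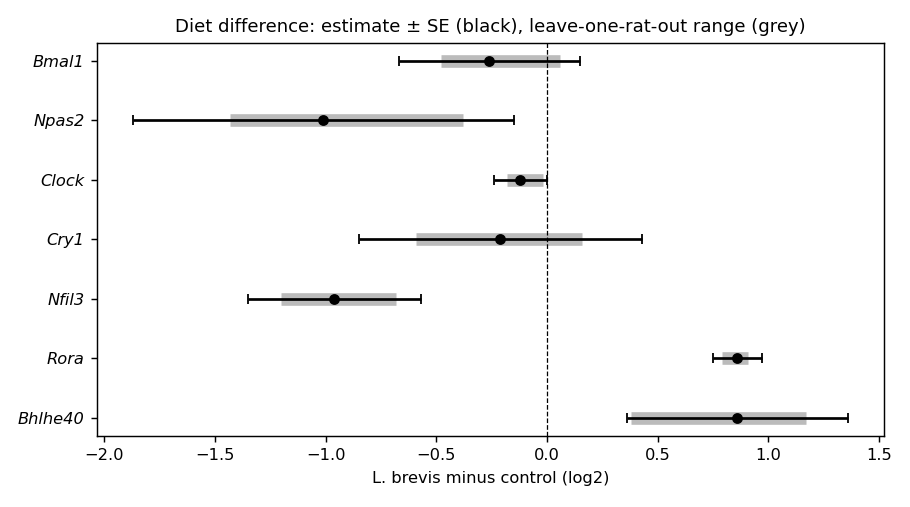
Diet difference (L. brevis minus control, log2) of the 7 clock genes, with the fitted estimate and SE in black and the range over 8 fits that each leave out 1 rat in grey. Rora stays between +0.79 and +0.91, and the ranges of Bmal1 and Cry1 cross 0.

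Nfil3, the D-box repressor and a target of the REV-ERB receptors, was lower in most L. brevis livers. Control rats had 9.03, 9.28, 8.91 and 8.10 (1368488_at), and L. brevis rats had 7.82, 8.38, 8.22 and 7.04. Only control 4, at 8.10, reached into the L. brevis range. The means of 8.83 ± 0.51 and 7.87 ± 0.60 differed by -0.96 (SE 0.39), a 1.95-fold lower signal, with 49.9% of the variance between diets. Leaving out single rats gave -1.20 to -0.68, and the Bacillus control mean as a covariate gave -1.80 (SE 0.64). In the livers with the highest Bmal1 the diets stood apart: L. brevis 1 and 2 had 7.82 and 8.38 of Nfil3, against 9.03, 9.28 and 8.91 in control 1, 2 and 3. In the livers with low Bmal1 they did not, as control 4 (8.10) lay between L. brevis 3 (8.22) and L. brevis 4 (7.04). This division was read from the values and was not tested.

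Bhlhe40, the E-box repressor DEC1, was high in a single liver. Control rats had 6.40, 6.46, 6.08 and 6.46 (1369415_at), and L. brevis rats had 6.87, 7.06, 6.27 and 8.63. L. brevis 1, 2 and 4 exceeded all control livers, while L. brevis 3 lay within their range. All control values of Bhlhe40 were below the array medians, so they too were not shown to be above background. The difference of +0.86 (SE 0.50) was +0.38 without L. brevis 4, +0.34 (SE 0.73) with the GAPDH end difference as a covariate and +2.19 (SE 0.73) with the Bacillus control mean. The part of either control signal in these differences was not tested.

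For the comparison of diets across the table, limma called 44 of 31042 probe sets at an adjusted p under 0.05, which is 0.142%, and 37 of the 44 were flat. No member was among them, and none was called in any of the 17 alternative fits. Rora came closest, with an adjusted p of 0.106 (limma), and 0.0657 to 1 over those alternatives. At an unadjusted p under 0.05, 1 of the 7 varying members was higher (Rora) and 1 lower (Nfil3), where 20.6% of the 3806 varying genes reached that level. The diets did not overlap in 1 member, Rora, and in 10.4% of varying genes. The median difference was -0.21 over the 7 members and -0.04 over all varying genes. Because the choice of members used this contrast, these counts and the p-values of the members are a description and not a test.

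**Figure D3:**
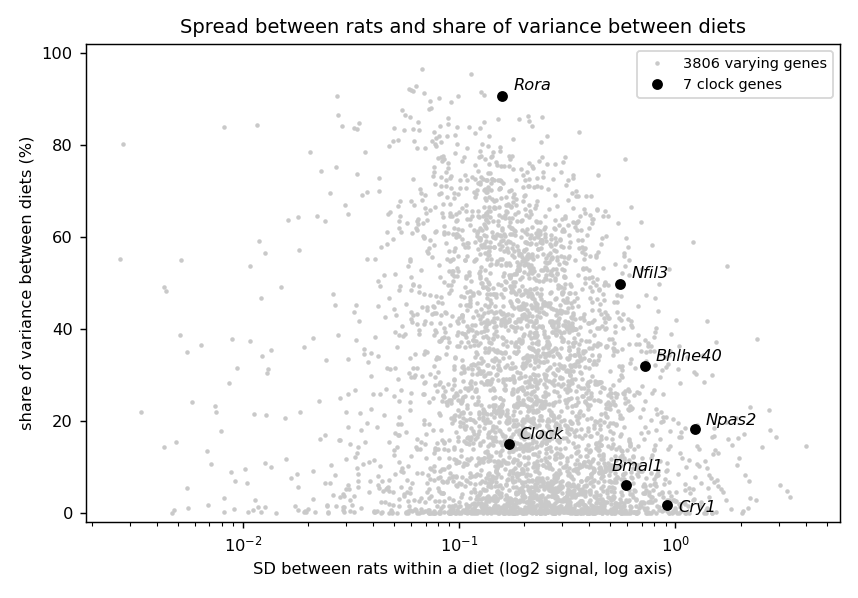
Share of each gene's variance that lies between diets (%) against its SD between rats of the same diet (log2 signal, log axis), for 3806 varying genes in grey and 7 clock genes in black. Rora lies near the top at 90.8%, and Npas2, Cry1 and Bhlhe40 lie far to the right.

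The spread between rats of a diet was wide for most members. The pooled within-diet SD of Npas2 was 1.23, larger than in 98.2% of varying genes, whose median SD was 0.207. Cry1 (0.92) exceeded 96.5% of varying genes, Bhlhe40 (0.72) 94.1%, Bmal1 (0.59) 91.2% and Nfil3 (0.56) 89.7%. Clock (0.17) and Rora (0.16) were ordinary by this measure, at percentiles 39.4 and 36.7.

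Bmal1 and Cry1 moved together from rat to rat, and Npas2 was low in the same livers as Bmal1. Over the 8 rats Bmal1 had a Pearson r of 0.92 with Npas2 (Spearman's rho 0.71) and 0.94 with Cry1 (rho 0.95). After the diet means were removed r was 0.93 and 0.94, and without the rats farthest from the Bmal1 median, L. brevis 4 and control 4, it was 0.70 and 0.98. These 2 rats had the lowest Bmal1, and among the other 6 Cry1 was tied to Bmal1 as closely as among all 8. L. brevis 3 still lay apart among the 6, at 6.87 for Bmal1 and 6.68 for Cry1. The rest of them had 7.39 to 7.73 and 7.68 to 8.69. Nfil3 had r = 0.73 with Bmal1 (rho 0.55) and 0.81 within diets. It fell to 0.21 without those 2 rats, so the Nfil3 relation rests on them. The same holds for Clock, with r = 0.74 (rho 0.57) over 8 rats, 0.16 without those 2 and 0.19 without L. brevis 4 alone. The relation of Npas2 to Bmal1 rests on control 4 and on L. brevis 3 and 4. Among the remaining rats Npas2 did not rise with Bmal1, and control 1 had the highest Npas2 (9.55) at the lowest Bmal1 (7.39).

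Bhlhe40 had no steady relation to Bmal1, and that of Rora could be read only within diets. Rora formed a cluster per diet, so no pooled value is meaningful, and within diets its r with Bmal1 was 0.51 over the 8 deviations. Bhlhe40 had r = -0.61 (rho -0.02), which became +0.50 without L. brevis 4. The GAPDH end difference also moved with the activator genes and with Cry1. Within diets its r was -0.55 with Bmal1, -0.69 with Npas2, -0.66 with Clock and -0.50 with Cry1. With it as a covariate the diet difference was +0.33 (SE 0.54) for Bmal1, +0.52 (SE 0.98) for Npas2, +0.08 (SE 0.14) for Clock and +0.61 (SE 0.88) for Cry1. The part of the GAPDH end difference in the likeness among these genes was not tested.

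**Figure D4:**
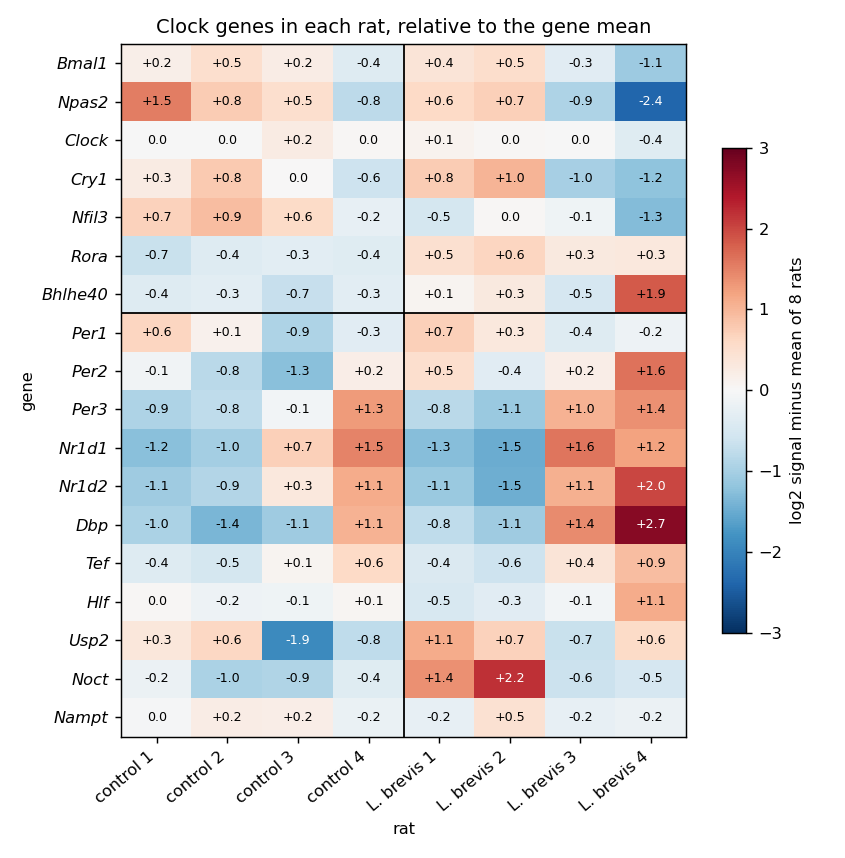
Log2 signal minus the mean of 8 rats for the 7 clock genes (above the line) and 11 other varying clock genes (below it), in each rat. In control 4 and L. brevis 3 and 4 Bmal1, Npas2 and Cry1 are low, and Per3, Nr1d1, Nr1d2, Dbp and Tef are high.

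The rest of the clock was read from a list of 24 further clock genes, of which 19 were measured and 11 varied. Bmal2, Rorb, Csnk1d, Csnk1e, Btrc, Gsk3b, Timeless and Wee1 were flat. Of the 11 varying genes 10 were higher and 1 lower in the L. brevis mean, with a median difference of +0.25, 0 at an unadjusted p under 0.05 and 0 called (limma). In none of the 11 were the diets apart. Of all 3806 varying genes 1599 were higher and 2207 lower, with a median difference of -0.04. Among them 20.6% reached an unadjusted p under 0.05 (limma), and the diets were apart in 10.4%. Per3, Nr1d1, Nr1d2, Dbp and Tef were high in the same livers, so the counts are not of independent genes.

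The REV-ERB genes, which repress Bmal1, were high in the livers with low Bmal1 and Npas2, and also in control 3, where these were not low. Nr1d1 had 5.89, 6.12, 7.86 and 8.63 in control rats and 5.87, 5.66, 8.74 and 8.34 in L. brevis rats. Its rats fell into a low set (control 1 and 2, L. brevis 1 and 2) and a high set (control 3 and 4, L. brevis 3 and 4), and the diet means differed by +0.03 (SE 1.03). The low set lay below the array medians (6.61 to 6.63) and was not shown to be above background. Nr1d2 had 7.70, 7.88, 9.08 and 9.86, and 7.65, 7.28, 9.82 and 10.77. Both genes thus put 2 rats of each diet on each side.

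Control 3 was a mixed case. It had Nr1d1 at 7.86 and Nr1d2 at 9.08, near the high rats, yet Bmal1 at 7.44 and Npas2 at 8.53, near the rats with low Nr1d1. Its Dbp, the PAR activator of D-box genes, was 6.08, level with the low rats. Dbp was high in control 4 (8.19) and in L. brevis 3 and 4 (8.56 and 9.87), and lay between 5.77 and 6.37 in the other 5 rats. Per3 divided the rats in the same way, with 8.24 in control 4, 8.34 in L. brevis 4, L. brevis 3 just below them, and 5.84 to 6.87 in the other 5 rats. The low Dbp values, and the low Per3 values except that of control 3 (6.87), lay below the array medians (6.61 to 6.63). They were not shown to be above background.

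The diets overlapped in each of these genes, also where the means lay apart. Dbp differed by +1.16 (SE 1.05), Per3 by +0.25 (SE 0.80), Per2, a light- and feeding-responsive repressor, by +0.98 (SE 0.52, with 36.2% of its variance between diets), and the PAR factor genes Tef and Hlf by +0.12 (SE 0.44) and +0.10 (SE 0.36). Further varying probe sets gave other sizes: +0.68 (SE 0.38) for Hlf, +0.24 (SE 0.42) for Tef, +0.06 (SE 0.09) for Usp2, and +0.86 (SE 0.92) and +0.01 (SE 0.05) for Nr1d2, whose brightest probe set gave +0.25 (SE 0.97). Tef was the smoothest counterpart of Bmal1, with rho -0.98 and r -0.95, or -0.90 without L. brevis 4 and control 4. Per1 (+0.25, SE 0.41), the deubiquitinase gene Usp2 (+0.86, SE 0.68) and Nampt, an enzyme of NAD synthesis (-0.09, SE 0.20), did not follow this division. Noct, a rhythmic phosphatase gene, was high in L. brevis 1 and 2 only (8.01 and 8.82, against 5.69 to 6.47 in the other rats).

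**Figure D5:**
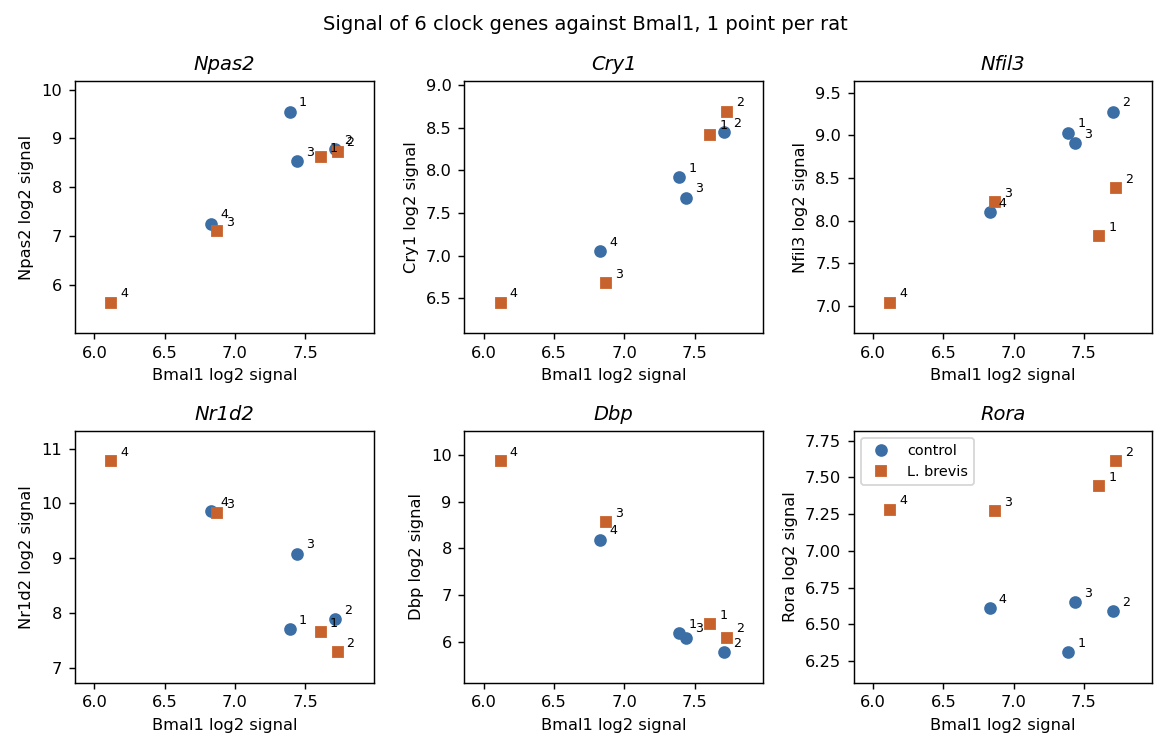
Log2 signal of Npas2, Cry1, Nfil3, Nr1d2, Dbp and Rora against that of Bmal1, 1 point per rat with its number, circles for control and squares for L. brevis. Cry1 climbs with Bmal1, Npas2 is lowest in the livers with low Bmal1, and Nr1d2 and Dbp descend, while Rora forms 1 band per diet.

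The genes most like Bmal1 were sought by Pearson r over the 8 arrays among the other 3805 varying genes. The 5 highest were Lgalsl (0.978), the mitochondrial gene COX2 (0.971), the glycolytic enzyme gene Pgk1 (0.971), Cd47 (0.968) and the tubulin gene Tubb2a (0.954). Cry1 ranked 8 and Npas2 13 from the top. Tubb2a had the widest range of the 5, from 7.42 in L. brevis 4 to 10.96 in control 2, while COX2 moved by only 0.11 in all. The 5 most opposite genes were Dbp (-0.970), Hes6 (-0.962), Nipsnap3b (-0.962), the steroid dehydrogenase gene Hsd17b2 (-0.961) and Hoga1 (-0.960). Dbp was thus the most opposite of all 3805 genes, though its rats formed a high and a low set, with Tef at rank 9, Nr1d2 at rank 14 and Per3 at rank 24 from the bottom. Hsd17b2 ran from 6.29 in L. brevis 1 to 15.22 in L. brevis 4. The first value lay below the array medians (6.61 to 6.63) and was not shown to be above background. The second exceeded the brightest Alb probe set (14.55), and whether it is a true level was not tested.

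The genes most like Rora were those that separated the diets. The 5 highest were the carboxypeptidase gene Cpd (0.949), C19h16orf87 (0.937), Apmap (0.934), the transporter gene Slco1a6 (0.931) and Cyfip1 (0.927). The 5 lowest were Txndc11 (-0.983), Nelfb (-0.961), Cc2d1b (-0.946), the splicing kinase gene Clk2 (-0.944) and the membrane fusion gene Stx5 (-0.940). With the diet means removed, Slco1a6 (0.93), Txndc11 (-0.85) and Nelfb (-0.80) kept most of their r with Rora, and Cyfip1 (0.24) and Cc2d1b (-0.38) did not. Slco1a6 moved by only 0.12 in all and lay below the array medians (6.61 to 6.63) in every rat. It was not shown to be above background. Because Rora formed a cluster per diet, this order mostly ranks genes by how far they separated the diets. No other member separated them, so the ranks of the members add nothing to that. Nfil3 stood at rank 672 from the bottom and Bhlhe40 at rank 630 from the top.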

How the data were processed

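The deposited table gives 1 log2 value per probe set and array, normalized by the authors, with the scale read from the values (array medians 6.61 to 6.63). The summarisation, normalization and any filter are not given in the sources used here. Depth does not apply to arrays, and the number of rats limits the precision.

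After 57 control probe sets were left out, the diets were compared over 31042 probe sets by a linear model in limma (version 3.58.1, run under R 4.3.3) with trended eBayes. Its p-values are two-sided, were adjusted by Benjamini-Hochberg and were read at 0.05, and the fit was tested on simulated data. Annotation gave 20826 probe sets 1 symbol, 436 several and 9780 none, updated through gene identifiers, and the brightest single-symbol probe set stood for a gene. A probe set varied if its range exceeded 0.01 log2. All members, the varying genes of the clock list, and the 5 genes with the highest and the lowest r to Bmal1 and to Rora were named. Members and lists were chosen with earlier results of these data known. If the rats differ only technically, SDs and p-values measure that spread alone. Alternatives were other sets of probe sets, normalizations, priors, weights, covariates, a replicate block and single rats left out. Promoter sequences came from RefSeq tables on GRCr8.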

Additional observations from a re-analysis of the deposited data

Results flagged for a closer look

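Within diets, 3 values of the clock genes stood far from the other 3 rats, with a gap above Dixon's 95% limit for groups of 4. Bhlhe40 was 6.08 in control 3, against 6.40 to 6.46 in the other control rats (gap 0.830 of the range). Dbp was 8.19 in control 4, against 5.77 to 6.18 (0.832). Nampt was 9.16 in L. brevis 2, against 8.45 to 8.53 (0.893), the liver that also carried the skeletal muscle signal. The control values of Bhlhe40 and the low control values of Dbp lay below the array medians (6.61 to 6.63) and were not shown to be above background. About 1 group in 20 is marked in this way by chance (5%). With 7 varying members and 11 other varying clock genes on 2 diets, some marks are to be expected at that rate.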

How the results depend on the processing

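The diet difference of Rora kept its sign in all 17 alternatives (+0.78 to +0.91), as did those of Nfil3 (-1.80 to -0.68) and Bhlhe40 (+0.34 to +2.19). The -1.80 and +2.19 came from the Bacillus control covariate, which was added after the data were seen, as were the GAPDH covariate for counts and the removal of the 2 rats farthest from the Bmal1 median. Bmal1 kept it in 15 of 17 (-0.59 to +0.33), Npas2 and Clock in 16 of 17 (-1.43 to +0.52 and -0.30 to +0.08) and Cry1 in 13 of 17 (-0.78 to +0.61). No member was called in any of them. The number of called probe sets, 44, depended on the setting: 4 among varying probe sets alone, 0 after quantile normalization (3374 at an unadjusted p under 0.05, limma), 4 after median centring, 77 with array weights, 21 among probe sets above the median, 29 with the Bacillus control covariate, 67 to 180 with single rats left out, and within 1.5 times in the others (58 without the intensity trend, 31 with the GAPDH covariate). With a replicate block it was 128. The labels do not say that replicate numbers pair the rats, and the main fit took the rats as unpaired. Same-numbered rats had positive correlations of their deviations (0.359, 0.203, 0.078 and 0.381). The other pairs had -0.519 to 0.397, most of them negative, though control 3 and 4 correlated better with another number. Whether the numbers mark a pairing or a shared order is not known. Under the block the differences of the members were the same, with SEs of 0.11 for Nfil3, 0.12 for Rora and 0.34 for Npas2. Without the block these SEs were 0.39, 0.11 and 0.86. Scalings moved the median difference of varying probe sets by at most 0.037. The causes of these changes were not tested.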
